A study of Mus musculus with 8 samples.

Results

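The mitochondrial ribosomal protein genes were read on Agilent 1-colour expression arrays. The RNA came from mouse hematopoietic stem cells (HSCs) of the bone marrow, the rare blood-forming cells of the marrow. Members were the non-control probes whose gene name in the scanner files is Mrpl or Mrps followed by a number, with an optional letter a to c for Mrps. This rule gave 125 probes for 75 genes, out of 41174 probes for 27600 gene names. The name put 46 genes with 75 probes in the large subunit (Mrpl) and 29 genes with 50 probes in the small one (Mrps). No measured value entered the choice.

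Total RNA came from HSCs of NrasG12D/G12D mice (n = 3, both alleles mutant), NrasG12D/+ mice (n = 3, 1 mutant allele) and Nras+/+ controls (n = 2), all of strain B6, with 1 sample per array. NrasG12D is a mutant form of Nras, a small GTPase of the Ras family, that remains switched on. Age, sex, the promoter or Cre that may turn on the allele, the sorting markers and any pooling of animals were not stated in the labels. The p-values therefore measure the spread between these samples, which may be technical, and in bulk samples fewer cells of a type and less RNA per cell cannot be told apart.

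Mitochondria keep their own ribosome, which makes only the membrane proteins of the respiratory chain and ATP synthase that mitochondrial DNA encodes. Its RNAs come from mitochondrial DNA, but all of its proteins are encoded in the nucleus, made in the cytosol and imported. Many of them descend from bacterial ribosomal proteins, and the others have no bacterial counterpart. HSCs at rest are known for low mitochondrial activity and a low rate of protein synthesis.

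Each probe is a DNA strand of 60 bases. Those shown here are the ones on which the values described later turn, written 5′ to 3′ as in the array files. Positions are those of the files, which name no genome build.
The first pair belongs to Mrpl40, at chr16:18785936-18785995 and chr16:18785900-18785959 on the minus strand. The capitals mark the 24 bases that both probes share.
Mrpl40 probe A_51_P278532: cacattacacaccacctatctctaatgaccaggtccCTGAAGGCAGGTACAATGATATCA
Mrpl40 probe A_51_P420627: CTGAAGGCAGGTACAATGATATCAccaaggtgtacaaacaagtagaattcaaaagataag
The next pair reads Mrpl28, at chr17:25854129-25854188 and chr17:25852181-25852240 on the plus strand, and its probes differed in direction.
Mrpl28 probe A_51_P273197: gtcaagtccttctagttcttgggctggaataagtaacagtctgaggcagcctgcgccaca
Mrpl28 probe A_52_P180335: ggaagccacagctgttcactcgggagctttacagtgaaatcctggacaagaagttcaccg
Mrps18b had a probe on the strand opposite to the gene, at chr17:35518492-35518551, and 1 on the gene's own strand, which lies across an exon junction at chr17:35522421-35522569.
Mrps18b probe A_52_P450965, opposite strand: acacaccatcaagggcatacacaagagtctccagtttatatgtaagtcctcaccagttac
Mrps18b probe A_52_P207964, gene strand: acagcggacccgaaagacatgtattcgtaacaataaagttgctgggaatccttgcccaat
The last 4 are the probes of Mrps16, Mrps27, Mrpl46 and Mrps5, which are described in turn later, at chr14:19179803-19179862, chr13:100515234-100515293, chr7:78654120-78654967 and chr2:127282219-127283310. The Mrpl46 and Mrps5 probes lie across an exon junction.
Mrps16 probe A_51_P164425: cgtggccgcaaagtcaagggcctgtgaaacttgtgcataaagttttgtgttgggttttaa
Mrps27 probe A_52_P615312: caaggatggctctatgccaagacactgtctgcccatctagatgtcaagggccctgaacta
Mrpl46 probe A_51_P335916: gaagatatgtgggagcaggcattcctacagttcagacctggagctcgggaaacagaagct
Mrps5 probe A_52_P147870: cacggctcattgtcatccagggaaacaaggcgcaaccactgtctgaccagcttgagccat

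Between 25.7% and 42% of all probes were well above background on an array. Of the 15 HSC identity markers, 12 had a probe well above background on at least 1 array, among them Ly6a, Slamf1 and Fgd5 on all 8. Procr, Tek and Gata2 were well above background on no array. Markers of other blood cells were present unevenly: the summed processed signal of the mature neutrophil list ranged from 163.8 to 27418 in NrasG12D/G12D, from 119.8 to 83428 in NrasG12D/+ and from 168.2 to 224.9 in Nras+/+, with its members Camp, S100a8 and Lcn2 well above background on no array. Of this list 7 of 10 genes were well above background on at least 1 array. The megakaryocyte list, with 3 of 6 genes so detected, ranged from 67.3 to 1307 in NrasG12D/G12D, from 137.2 to 1946.1 in NrasG12D/+ and from 69.8 to 127.1 in Nras+/+, and Pf4, Ppbp and Gp9 were on no array. The part of either list in the results was not tested. Across genes, NrasG12D/+ replicate 1 correlated least with the other arrays (mean r 0.557, against 0.618 to 0.634 for the other arrays).

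Detection came first: which of these genes gave a signal in HSCs. Agilent's flag for a spot well above background was set for 38, 28 and 39 of the 125 member probes on NrasG12D/G12D replicates 1, 2 and 3. It was set for 51, 61 and 33 on the NrasG12D/+ arrays and for 54 and 38 on the Nras+/+ arrays. The 3 genotypes overlapped in this count. The slide moved with it: slide 1, which carried both Nras+/+ arrays and NrasG12D/+ replicates 1 and 2, had 38 to 61 probes, and slide 2, with NrasG12D/+ replicate 3 and the 3 NrasG12D/G12D arrays, had 28 to 39. The share of all probes moved too, from 30.5% to 42% on slide 1 and from 25.7% to 30.1% on slide 2.

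Genes of the small subunit were more often detected on all 8 arrays than those of the large subunit. With at least 2 arrays the shares lay closer, at 26 of 50 Mrps probes (52%) and 36 of 75 Mrpl probes (48%). Of all probes 44.7% met that mark. Of the 50 Mrps probes, 10 were well above background on all 8 arrays (20%), against 7 of the 75 Mrpl probes (9.33%) and 16% of all probes. Counted by gene, 10 of 29 Mrps genes and 6 of 46 Mrpl genes had such a probe, together 21.3% of members, beside 21.96% of all gene names. The 10 include Mrps18b, whose probe of this kind lies on the strand opposite to the gene. On each of the 8 arrays the share of Mrps probes exceeded both the Mrpl share and the share of all probes. It was 32%, 30% and 34% on the NrasG12D/G12D arrays, where the Mrpl share was 29.3%, 17.3% and 29.3%. With Agilent's flag for a positive and significant signal, which more probes carry, the excess over Mrpl did not hold on every array. Both shares were 68% on NrasG12D/+ replicate 1, and on replicate 2 the Mrps share was 72% against 73.3%. On the other arrays the Mrps share was higher. Mrps probes were also richer in G and C, with a median of 45%, against 41.7% for Mrpl probes, and the part of base composition in the difference was not tested.

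**Figure D1:**
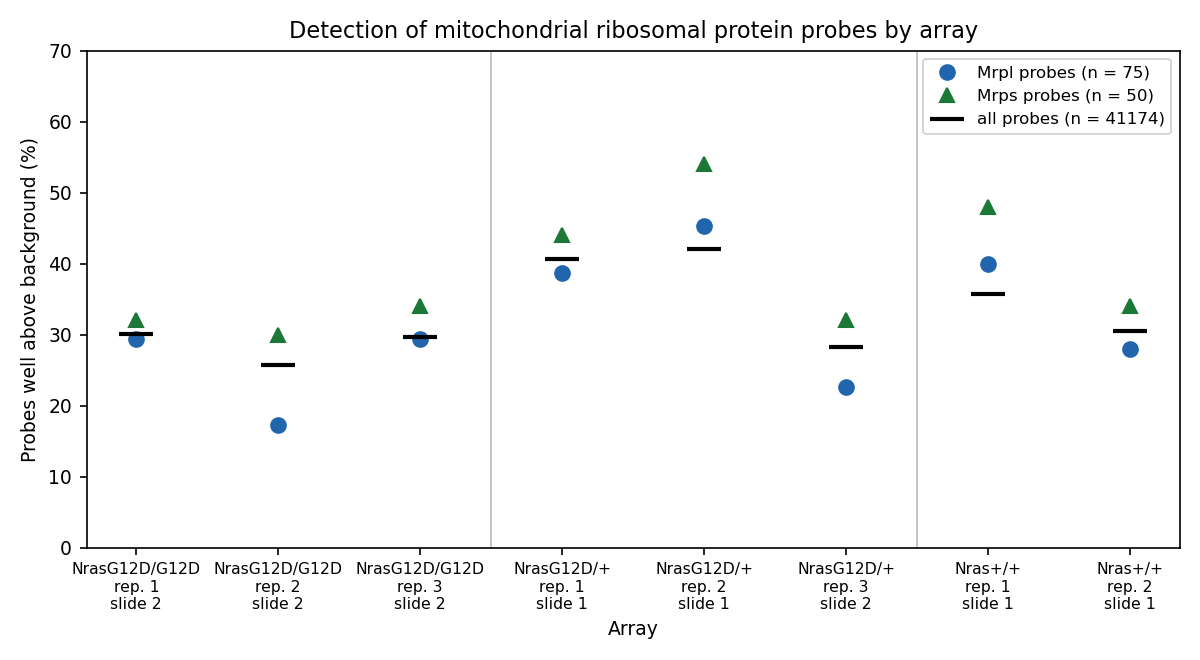
Share of probes well above background (%, y axis) on each of the 8 arrays (x axis, with the slide under each name), for the 75 Mrpl probes (circles), the 50 Mrps probes (triangles) and all 41174 probes (dashes). Triangles stand above circles and dashes on every array, and the NrasG12D/+ arrays of slide 1 lie above the NrasG12D/+ array of slide 2.

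The 16 genes with a probe well above background on all 8 arrays were Mrpl2, Mrpl10, Mrpl11, Mrpl33, Mrpl40 and Mrpl49 of the large subunit and Mrps2, Mrps5, Mrps6, Mrps7, Mrps11, Mrps18b, Mrps18c, Mrps26, Mrps34 and Mrps35 of the small one. They include core proteins shared with bacteria, such as Mrpl2 near the centre where peptide bonds form, Mrpl11 of the stalk base and Mrps7, which helps to build the head of the small subunit. At the other end, 18 genes were well above background on no array, as were 9373 of the 27600 gene names. Among these were Mrpl3, a core protein with a bacterial homologue, Mrpl44, which resembles an RNase III, and Mrps22, a small-subunit protein without a bacterial counterpart. A further 7 genes were detected on 1 array and 50 on at least 2 (66.7%, beside 54.7% of all gene names).

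Detection varied with the base composition of the probe. Of the 63 member probes with 43.3% or more G and C, 43 (68.3%) were well above background on at least 2 arrays, against 19 of 62 (30.6%) below that value. Over all probes the same split gave 69.3% and 26.7%. Probes designed on RefSeq accessions were detected on at least 2 arrays in 49.5% of 109, and those on other mRNAs or ESTs in 50% of 16. The Mrpl40 pair shows how far neighbouring probes can part. The first, with 45% G and C, was well above background on all 8 arrays, and the second, with 36.7%, on none, although they share 24 bases of 1 transcript.

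The comparisons of genotype address whether NrasG12D changes these messages in HSCs. Levels are given as log2 processed signal minus the 75th percentile of the array, for which the 6576 probes that every array detected were used, so a negative level is dimmer than that percentile. A probe's own level cannot be set against that of another probe. Each gene was represented by its brightest probe, and 49 of the 75 genes could be fitted, 29 Mrpl and 20 Mrps. Mrps35, detected on all arrays, was not fitted because the outlier flag removed it from all 3 NrasG12D/G12D arrays.

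No mitochondrial ribosomal protein gene passed an adjusted p under 0.05 in any comparison (limma, Benjamini-Hochberg over all 14966 genes tested). The whole array gave no call either: 0 of 14966 genes, or 0%, in each of the 3 comparisons. At an unadjusted p under 0.05, 1 member was higher and 1 lower in NrasG12D/G12D than in Nras+/+, beside 1.32% and 5.22% of all genes. In NrasG12D/+ against Nras+/+ it was also 1 higher and 1 lower, beside 2.35% and 2.42% of all genes. Between NrasG12D/G12D and NrasG12D/+ no member was higher and 1 was lower, beside 1.61% and 4.34%. The higher members of the first 2 comparisons, Mrps27 and Mrps16, had met the filter on dim probes only through mutant arrays.

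The members' medians were set beside those of all genes. Their median log2 change in NrasG12D/G12D against Nras+/+ was -0.72, beside -0.44 for all genes tested, a difference of -0.28, and 20 of 49 lay above the median of all genes. In NrasG12D/+ against Nras+/+ the median was -0.23, beside -0.25 for all genes, with 25 of 49 above the median of all. Between NrasG12D/G12D and NrasG12D/+ it was -0.37, beside -0.20, with 20 of 49 above. The median of all genes itself depends on the scaling. For NrasG12D/G12D against Nras+/+ it was 0.05 with the percentile over all probes and 0.19 with the deposited value table, and changes of single genes stand beside the -0.44 found here.

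The slide touched these medians. No slide held both NrasG12D/G12D and Nras+/+ arrays, so a value with the slide as a block rests on NrasG12D/+, which was on both. With that block the members' median relative to all genes was -0.06 in NrasG12D/G12D against Nras+/+. In NrasG12D/+ against Nras+/+ it was 0.10, also on slide 1 alone, and in NrasG12D/G12D against NrasG12D/+ it was -0.11, also on slide 2 alone. No member was called with the block.

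The array medians of the subunits were then set apart. After each gene's mean over the arrays was taken off, the median Mrps gene lay -0.06, -0.15 and -0.32 from the median of all genes on the NrasG12D/G12D arrays. It lay 0.23, 0.30 and 0.20 from it on the NrasG12D/+ arrays, and 0.03 and 0.33 on the Nras+/+ arrays. All 3 NrasG12D/G12D arrays were thus below the other 5. For Mrpl genes the values were -0.02, -0.01 and 0.31 in NrasG12D/G12D, -0.32, 0.08 and -0.04 in NrasG12D/+, and 0.16 and -0.24 in Nras+/+, with all genotypes overlapping. In fitted changes, 5 of 20 Mrps genes and 15 of 29 Mrpl genes lay above the median of all genes in NrasG12D/G12D against NrasG12D/+. The median change of the Mrps genes relative to all genes was -0.23 in that comparison and that of the Mrpl genes 0.10. Neither difference was tested, since the members are not replicates.

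Mrps18a and Mrps30 carry small-subunit names, but their proteins sit in the large subunit. With these in the large subunit, the median of the large-subunit genes relative to all genes in NrasG12D/G12D against NrasG12D/+ turned from the 0.10 found by name to -0.05, and that of the small-subunit genes was -0.17 in place of -0.23.

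**Figure D2:**
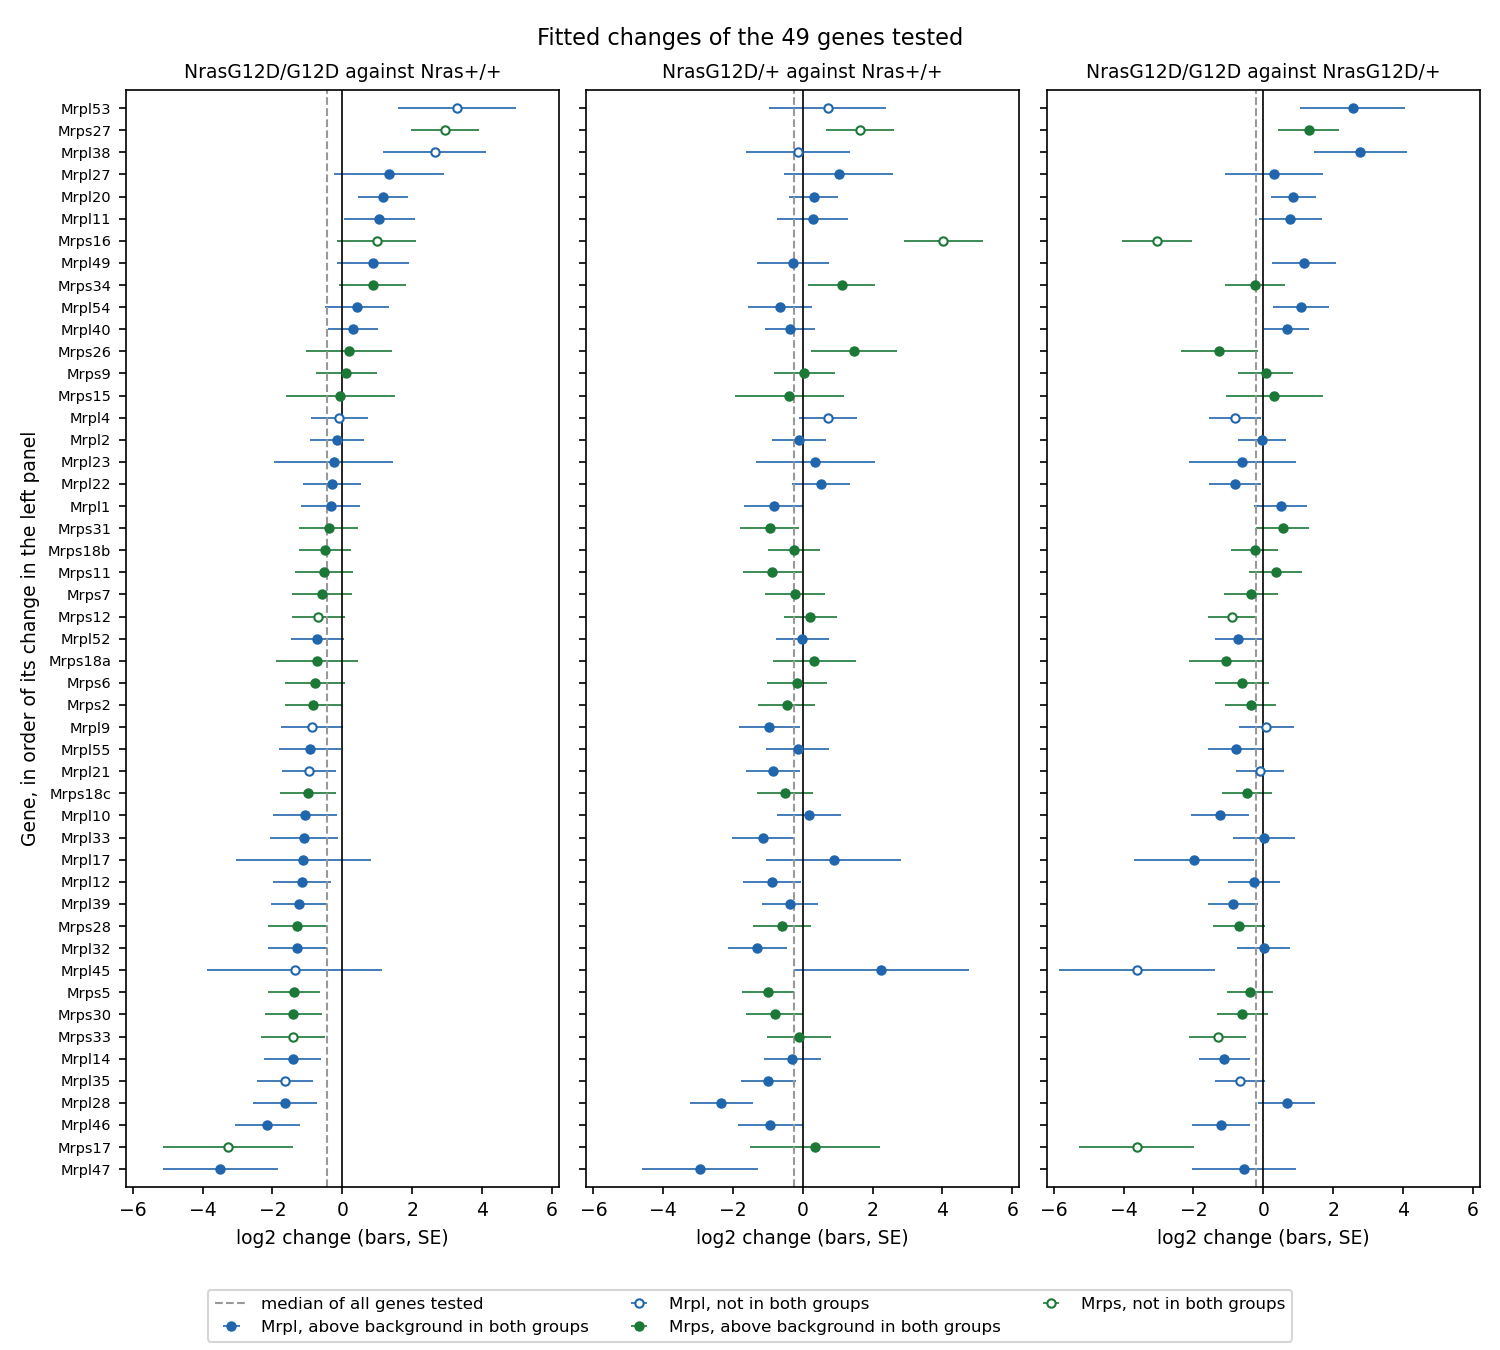
Log2 change (x axis, with bars for the standard error) of the 49 genes tested (y axis) in the 3 comparisons, with Mrpl genes in blue and Mrps genes in green. Open points were well above background in at most 1 of the groups compared, and the dashed line is the median of all genes tested. Most bars reach the dashed line, and the medians of the panels lie within 0.28 of it.

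Among large-subunit genes, the clearest separation from the controls was that of Mrpl28, a bacterial-type protein of the large subunit. Its tested probe had levels of -3.02, -4.24 and -3.15 in NrasG12D/G12D and -4.13, -5.52 and -2.79 in NrasG12D/+, against -1.73 and -1.90 in Nras+/+. Every mutant array was below both controls. The log2 change was -2.33 (SE 0.91, unadjusted p = 0.032, adjusted p = 0.816 in limma) in NrasG12D/+ and -1.65 (SE 0.91, adjusted p = 0.722) in NrasG12D/G12D. The other Mrpl28 probe stood the other way round, at -3.52, -3.29 and -5.24 in NrasG12D/G12D and -3.15, -3.86 and -5.64 in NrasG12D/+, against -6.46 and -5.76 in Nras+/+. It was well above background on 2 arrays of each mutant genotype and on neither control. With normexp background correction the change of the first probe was -0.66 in NrasG12D/G12D and -1.04 in NrasG12D/+, and with the slide as a block it was -3.69 and -3.01.

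Mrpl32 and Mrpl46 were also lower in mutant arrays. Mrpl32, a bacterial-type protein that a mitochondrial protease trims before it is built into the ribosome, had levels of -4.71, -2.50 and -2.72 in NrasG12D/G12D and -3.82, -3.26 and -2.89 in NrasG12D/+, against -2.14 and -1.90 in Nras+/+. Its log2 change was -1.29 (SE 0.85, adjusted p = 0.731 in limma) in NrasG12D/G12D and -1.30 (SE 0.85, adjusted p = 0.816) in NrasG12D/+. Both mutant genotypes lay wholly below the controls, and neither change passed. With normexp the changes were -0.54 and -0.68.

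Mrpl46, a large-subunit protein without a bacterial counterpart, had levels of -1.35, -3.75 and -1.46 in NrasG12D/G12D, -1.15, -0.37 and -1.41 in NrasG12D/+, and -0.63 and 0.56 in Nras+/+. NrasG12D/G12D arrays were all below the controls, while NrasG12D/+ overlapped them. The log2 change in NrasG12D/G12D was -2.15 (SE 0.93, unadjusted p = 0.047, adjusted p = 0.722 in limma), and -1.36 without NrasG12D/G12D replicate 2. Over the alternatives it ranged from -2.74 to -1.09.

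Mrpl46 and the small-subunit gene Mrps11 lie head to head on chromosome 7, with 41 bases between their annotated starts (RefSeq, GRCm38.p6). The bases common to both promoter windows, chr7:78783040-78783180 on the plus strand, are shown because they lie before a gene of each subunit. The capitals mark the bases between the starts.
Mrpl46 and Mrps11 common window: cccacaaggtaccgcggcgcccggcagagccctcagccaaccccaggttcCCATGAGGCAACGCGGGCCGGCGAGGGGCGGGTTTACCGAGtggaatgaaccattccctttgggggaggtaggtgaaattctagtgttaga
Mrps11, a protein of the small-subunit platform, had levels of -2.46, -1.32 and -1.84 in NrasG12D/G12D, -2.76, -2.94 and -0.97 in NrasG12D/+, and -1.72 and -0.97 in Nras+/+. The array with the lowest Mrpl46 level, NrasG12D/G12D replicate 2, had the highest Mrps11 level of its genotype. The change of Mrps11 was -0.52 in NrasG12D/G12D and -0.88 in NrasG12D/+, and neither passed.

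The stalk proteins split. Mrpl10, at the base of the stalk that recruits translation factors, had levels of -1.96, -1.60 and -0.94 in NrasG12D/G12D, -0.68, 0.76 and -0.86 in NrasG12D/+, and 0.70 and -1.58 in Nras+/+. NrasG12D/G12D lay below NrasG12D/+ without overlap (log2 change -1.24, SE 0.82, adjusted p = 0.831 in limma), and the controls overlapped both. Mrpl11, its neighbour, had changes of 1.06 and 0.28 in NrasG12D/G12D and NrasG12D/+ against Nras+/+, and the first turned to -1.15 with the slide as a block. Mrpl12, the stalk protein that in human cells also binds the mitochondrial RNA polymerase, had changes of -1.15 and -0.89. None of these passed.

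Mrpl14 and Mrpl20 moved apart in NrasG12D/G12D. Mrpl14, at the face that meets the small subunit, had levels of -3.78, -5.02 and -3.84 in NrasG12D/G12D, -2.50, -3.50 and -3.31 in NrasG12D/+, and -3.61 and -1.98 in Nras+/+. Mrpl20, in bacteria an early assembly protein, had levels of -3.26, -3.02 and -3.74 in NrasG12D/G12D, -4.15, -3.76 and -4.70 in NrasG12D/+, and -4.05 and -4.97 in Nras+/+. For Mrpl14 the 3 NrasG12D/G12D arrays were the lowest of all, and for Mrpl20 the highest. The changes against NrasG12D/+ were -1.11 (SE 0.73) and 0.86 (SE 0.63), and neither passed (adjusted p = 0.831 and 0.840 in limma). With normexp background correction these became -0.09 and 0.27, and the second was 1.36 with the slide as a block.

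Groups that did not overlap were common throughout the array, which is the scale for such cases. In NrasG12D/G12D against Nras+/+, 14 of 49 members lay wholly below and 3 wholly above the controls, beside 22.8% and 6.04% of all genes. In NrasG12D/+ against Nras+/+ the counts were 6 and 2, beside 16% and 8.96%, and in NrasG12D/G12D against NrasG12D/+ they were 2 and 1, beside 8.71% and 2.79%. By location of the protein, the 14 were 10 of the 31 large-subunit genes tested and 4 of the 18 small-subunit genes tested. This split was not tested. The 10 were Mrpl9, Mrpl14, Mrpl28, Mrpl32, Mrpl35, Mrpl39, Mrpl46, Mrpl47, Mrpl55 and Mrps30, the last with a probe on the strand opposite to the gene. Mrpl28, Mrpl32, Mrpl35 and Mrps5 were below the controls in both mutant genotypes, which share those controls. The other 4 were Mrps5, Mrps18c, Mrps28 and Mrps33. Of the 14, Mrpl9, Mrpl35 and Mrps33 were well above background on no NrasG12D/G12D array. Mrps27 and Mrpl38, wholly above the controls, were well above background on no Nras+/+ array. The same held for Mrps16 and Mrps27, the genes higher in NrasG12D/+. In these genes 1 group was near background, so the separation is not a measured order of levels. Mrpl9, Mrpl35, Mrpl39, Mrpl55, Mrps28 and Mrps33 were not named by the rule and are given here after their values were seen.

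Several large changes rested on 1 array. Mrpl45, which in mammals ties the ribosome to the inner membrane, had a level of 3.95 in NrasG12D/+ replicate 2 and between -6.80 and -3.67 on the other 7 arrays. Its change of 2.25 (SE 2.504) in NrasG12D/+ became -0.80 without that array. Mrpl47, whose tested probe stood at 1.95 in Nras+/+ replicate 1 and -3.10 in replicate 2, had changes of -3.49 in NrasG12D/G12D and -2.95 in NrasG12D/+, which became -0.96 and -0.42 without Nras+/+ replicate 1. Mrpl27, a protein near the catalytic centre in bacteria, had levels of -0.22, -2.07 and -5.19 in NrasG12D/G12D, -0.33, -3.75 and -4.35 in NrasG12D/+, and -3.79 and -3.88 in Nras+/+. Its values within a mutant genotype differed by more than the genotypes did. Single high arrays also occurred for Mrpl38 (0.35 in NrasG12D/G12D replicate 1) and Mrpl17 (1.55 in NrasG12D/+ replicate 1), both picked out after their values were seen.

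The remaining large-subunit genes named by the rule overlapped between most genotypes. Mrpl2 had levels of -4.20, -2.97 and -2.74 in NrasG12D/G12D, -3.34, -3.50 and -2.98 in NrasG12D/+, and -3.77 and -2.56 in Nras+/+, with changes of -0.14 and -0.11 against the controls. Mrpl40 stood at -0.74, -1.18 and -1.03 in NrasG12D/G12D, -2.09, -1.86 and -1.01 in NrasG12D/+, and -1.78 and -0.78 in Nras+/+, with changes of 0.30 and -0.37. Both are measured on all 8 arrays, and their genotypes could not be separated at this spread. Mrpl54, a protein without a bacterial counterpart, had levels of -2.02, -4.14 and -1.67 in NrasG12D/G12D, -3.40, -3.18 and -4.49 in NrasG12D/+, and -2.92 and -3.15 in Nras+/+. NrasG12D/+ lay just below the controls (log2 change -0.66, SE 0.91) and NrasG12D/G12D on both sides of them.

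In the small subunit, Mrps5 gave the tightest values. It is a bacterial-type protein of the channel through which the messenger enters, and it was well above background on all arrays. Its levels were -3.97, -2.95 and -3.66 in NrasG12D/G12D and -3.77, -3.13 and -2.51 in NrasG12D/+, against -2.47 and -1.81 in Nras+/+. Both mutant genotypes were below both controls, NrasG12D/+ replicate 3 by a narrow margin. The log2 change was -1.38 (SE 0.74, unadjusted p = 0.094, adjusted p = 0.722 in limma) in NrasG12D/G12D and -0.996 (SE 0.74, adjusted p = 0.816) in NrasG12D/+. It was negative under every alternative run, from -2.33 to -0.63 in NrasG12D/G12D and from -1.33 to -0.67 in NrasG12D/+.

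**Figure D3:**
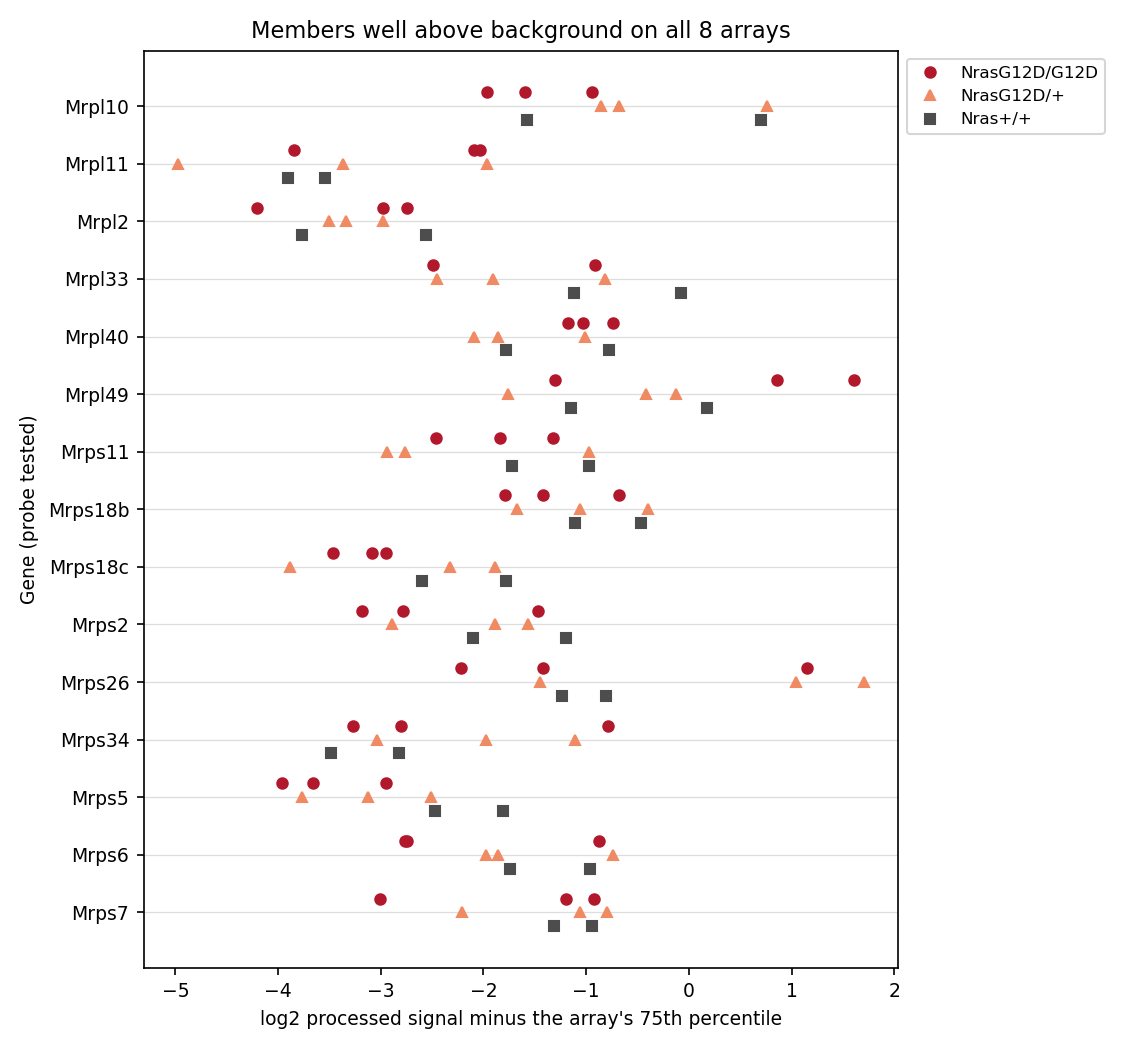
Level of the tested probe on each array (x axis, log2 processed signal minus the 75th percentile of the array) for the 15 fitted genes well above background on all 8 arrays (y axis). Circles are NrasG12D/G12D, triangles NrasG12D/+ and squares Nras+/+, with 1 point per array. In Mrps5 all squares stand right of the other points, and in most other genes the 3 genotypes overlap.

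Mrps27 ran in the other direction. It belongs to the pentatricopeptide repeat proteins, which bind RNA, and has no bacterial counterpart. Its levels were -1.0, -3.40 and -4.0 in NrasG12D/G12D and -3.59, -4.79 and -3.94 in NrasG12D/+, against -5.65 and -5.85 in Nras+/+, where the probe was not well above background. With the main processing the difference of group means was at least 2.48-fold in NrasG12D/G12D, with an adjusted p of 0.722 in limma. The probe met the filter on dim probes only through mutant arrays, so the p is no support for the difference. Such a bound sets the bright group's mean against the higher, on each dim array, of what this probe read and the dimmest signal still well above background. All mutant arrays were higher than both controls, but with normexp background correction the fitted change was 0.37 in NrasG12D/G12D and -0.28 in NrasG12D/+.

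Mrps16, a bacterial-type protein, is named after its values were seen. Its levels were -5.71, -3.95 and -6.15 in NrasG12D/G12D, -1.46, -4.29 and -0.93 in NrasG12D/+, and -6.41 and -6.10 in Nras+/+. The probe was well above background on all 3 NrasG12D/+ arrays and on none of the others, so it met the filter only through the genotype where it was high and its p-values are no support. By the same bound, which compares group means, NrasG12D/+ was at least 3.70-fold higher than Nras+/+ (adjusted p = 0.816 in limma). The mean of NrasG12D/G12D was at least 3.95-fold lower than that of NrasG12D/+ (adjusted p = 0.803 in limma). These mutant genotypes overlapped, since NrasG12D/G12D replicate 2 was above NrasG12D/+ replicate 2.

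Other small-subunit genes named by the rule had overlapping genotypes. Mrps2, Mrps6 and Mrps7 had changes of -0.83, -0.78 and -0.58 in NrasG12D/G12D and -0.46, -0.17 and -0.23 in NrasG12D/+, with errors of 0.82 to 0.87. Mrps12, a protein of the decoding centre, was detected on 3 arrays, none of them NrasG12D/G12D. The mean of that genotype was at least 1.02-fold lower than that of Nras+/+. The change of Mrps12 in NrasG12D/+ was 0.22. Mrps26 and Mrps34, which have no bacterial counterpart, had positive changes of 0.19 and 0.87 in NrasG12D/G12D and 1.45 and 1.11 in NrasG12D/+. Mrps26 was at 1.15, -2.22 and -1.42 in NrasG12D/G12D, 1.04, 1.71 and -1.45 in NrasG12D/+, and -0.81 and -1.23 in Nras+/+, so each mutant genotype held arrays on both sides of the controls. The change of Mrps26 in NrasG12D/G12D ranged from -0.80 to 3.02 over the alternatives, the highest with the slide as a block, and in NrasG12D/+ it was 2.40 with that block. Those of Mrps34 were 0.32 and 0.28 with normexp.

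The 3 Mrps18 genes are paralogs of 1 bacterial protein, and each protein sits at its own place in the ribosome. Mrps18c had levels of -3.47, -2.95 and -3.09 in NrasG12D/G12D, -2.33, -3.88 and -1.89 in NrasG12D/+, and -2.60 and -1.78 in Nras+/+. NrasG12D/G12D was below the controls without overlap (log2 change -0.98, SE 0.81, adjusted p = 0.759 in limma), and the change was -2.20 with the slide as a block and -0.48 with normexp. Another Mrps18c probe on the gene's strand, well above background on 3 arrays, went the other way. Its fitted changes against Nras+/+ were 1.19 in NrasG12D/G12D and 1.82 in NrasG12D/+. Mrps18a, of the large subunit, had a change of -0.73 (SE 1.18). Mrps18b stood at -0.51, but its tested probe lies on the strand opposite to the gene. The Mrps18b probe on the gene's strand stood at -0.48, -3.33 and -6.21 in NrasG12D/G12D, -6.05, -5.21 and -4.80 in NrasG12D/+, and -6.64 and -6.00 in Nras+/+, and was well above background on the first 2 of these arrays only. The tested probe of Mrps30 lies on the opposite strand as well, with changes of -1.40 in NrasG12D/G12D and -0.80 in NrasG12D/+. Values of Mrps18b and Mrps30 therefore describe these probes and are uncertain as gene levels.

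Probes of the same gene were then set beside each other. In 9 genes more than 1 probe was well above background on at least 2 arrays, which gave 12 pairs of the representing probe with a further probe. The changes of a pair had the same sign in 5 of 12 pairs for NrasG12D/G12D against Nras+/+, 7 of 12 for NrasG12D/+ against Nras+/+ and 4 of 12 between the mutant genotypes. Over all genes with such probes the shares were 54.4%, 53.9% and 52.2% of 3254 pairs. The median gap between the changes of a pair was 1.67, 0.58 and 1.30 on the log2 scale in the members, beside 1.15, 1.14 and 1.07 in all genes. Some of these probes were below background in a whole genotype, where a fitted change is no measured fold.

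The probes of Mrps26 had the same sign in all 3 comparisons, with 0.67 in NrasG12D/G12D and 2.08 in NrasG12D/+ for the further probe beside 0.19 and 1.45 for the representing one. The further probe of Mrpl33 had -0.96 in NrasG12D/G12D and 0.65 in NrasG12D/+, beside -1.10 and -1.13 for the representing probe, which lacks the value of NrasG12D/G12D replicate 2. For Mrpl49, the representing probe gave 0.88 in NrasG12D/G12D, and the further probe measured in every genotype -1.72.

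**Figure D4:**
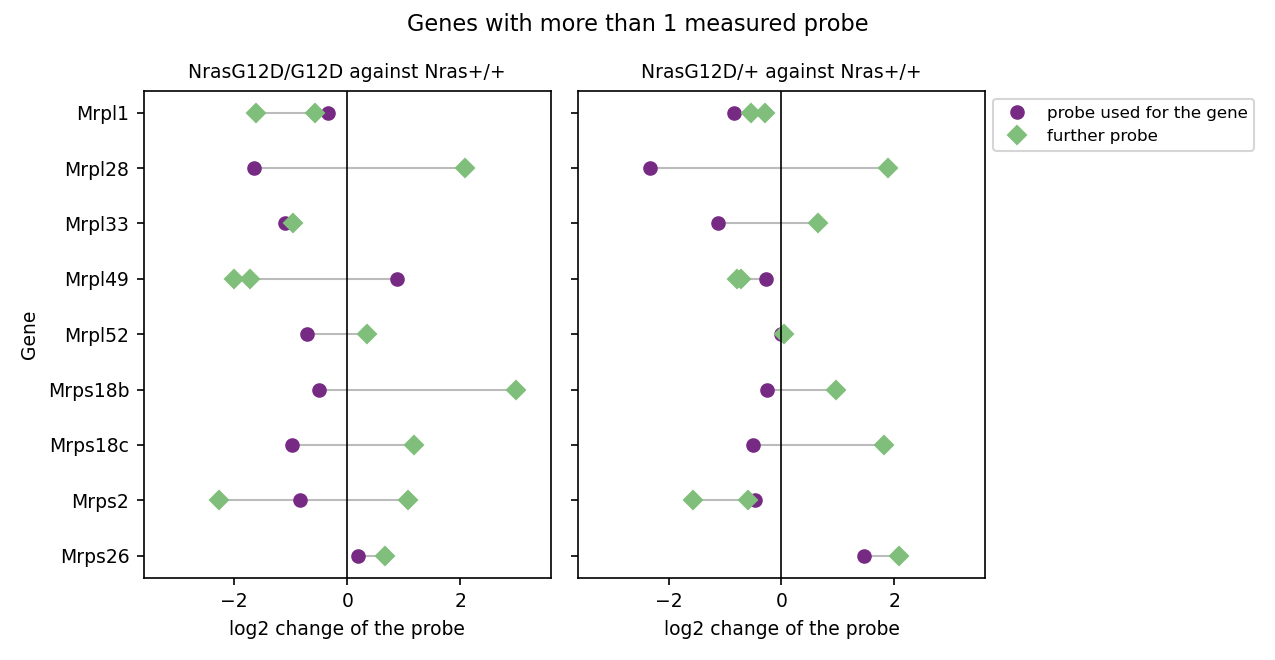
Log2 change (x axis) of each measured probe for the 9 genes with more than 1 measured probe (y axis), in NrasG12D/G12D (left) and NrasG12D/+ (right) against Nras+/+. Circles are the probe that represents the gene and diamonds the further probes. Grey lines join probes of a gene, and they cross 0 for Mrpl28, Mrpl52, Mrps18b and Mrps18c in both panels.

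The promoters of these genes were searched for short motifs. RefSeq windows of 300 bases (GRCm38.p6) were found for 66 of the 75 genes, 72 windows in all. CCGGAAG on either strand, the core bound by ETS factors such as GABPA, occurred in 24 windows (33.3%), beside 8.86% of all 32851 windows. AAGATGGCG, bound by YY1, occurred on either strand in 7 (9.7%), beside 1.4% of all. The last 3 letters of CCGGAAG can also be the first 3 of AAGATGGCG, so 1 stretch may count for both. These are matches of letters and show no binding.

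Genes that build or serve the mitochondrial ribosome gave no calls in any comparison. Of 9 translation factors tested (of 16), 3 lay above the median of all genes in NrasG12D/G12D and 6 in NrasG12D/+ against Nras+/+, and 1 in NrasG12D/G12D against NrasG12D/+, where all 9 had a negative change. Of 17 assembly factors tested (of 28), the counts were 8, 6 and 12. Of 9 mitochondrial aminoacyl-tRNA synthetases tested (of 17), they were 6, 5 and 4, and of 11 factors of mitochondrial DNA and RNA synthesis (of 20), 2, 6 and 3. Of 9 regulators of mitochondrial biogenesis (of 12), 5, 6 and 5 lay above it. Other proteins of the mitochondrial ribosome, named outside the rule, were Dap3, Ptcd3, Chchd1, Aurkaip1, Gadd45gip1, Mrpl57 and Mrpl58. In these 7 the median change relative to all genes was 0.30 in NrasG12D/G12D and 0.09 in NrasG12D/+ against Nras+/+, and 0.19 in NrasG12D/G12D against NrasG12D/+.

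Vars2, which loads valine onto mitochondrial tRNA, was the only gene of these lists with an unadjusted p under 0.01. Its levels were 3.02, 1.51 and -3.33 in NrasG12D/G12D, 4.58, 4.97 and 5.81 in NrasG12D/+, and 0.57 and 1.01 in Nras+/+. All NrasG12D/+ arrays were above all others. The change was -4.72 (SE 1.43, unadjusted p = 0.0094, adjusted p = 0.803 in limma) in NrasG12D/G12D against NrasG12D/+ and 4.33 (SE 1.60, adjusted p = 0.816) in NrasG12D/+ against Nras+/+.

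Compared with the cytosolic ribosomal protein genes, the mitochondrial set was detected less often, at a share near that of all probes. Of 125 mitochondrial probes 40% were well above background on no array, beside 18.6% of the 140 cytosolic probes and 43.3% of all probes. The cytosolic genes had medians of 0.51 in NrasG12D/G12D and 1.29 in NrasG12D/+ against Nras+/+, relative to all genes. The oxidative phosphorylation genes, picked by name, had 0.32 and 0.57. The name rule took in every name that begins with Nduf, and also complex II (Sdh), for which the mitochondrial ribosome makes no protein. Members had -0.28 and 0.03 in the same comparisons. In NrasG12D/G12D against NrasG12D/+ the medians were -0.36 for the cytosolic genes, -0.20 for the oxidative phosphorylation genes and -0.16 for the members. The differences between these lists were not tested. In the cytosolic list NrasG12D/+ replicate 1 stood apart. Over its 140 probes the median level was -2.82 on that array, against -4.23 and -4.58 on NrasG12D/+ replicates 2 and 3. It was -4.50 and -4.41 on the Nras+/+ arrays and -4.84, -4.40 and -4.08 on the NrasG12D/G12D arrays. The part of replicate 1 in the cytosolic medians was not tested.

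Of these 2 lists, the genes with the lowest unadjusted p under 0.01, at most 2 per comparison, were Ndufb4 and Ndufa10, subunits of respiratory complex I, and Rpl14 of the cytosolic large subunit. Ndufb4 stood at 0.32, 0.35 and -2.05 in NrasG12D/G12D, -3.10, -4.16 and -3.79 in NrasG12D/+, and -4.84 and -6.08 in Nras+/+, where it was not well above background. Its change in NrasG12D/G12D against NrasG12D/+ was 3.22 (SE 0.84, adjusted p = 0.803 in limma). Every NrasG12D/G12D array was above all others. Ndufa10 stood at -5.27, -5.27 and -4.26 in NrasG12D/G12D, -2.86, -2.75 and -2.66 in NrasG12D/+, and -3.90 and -2.70 in Nras+/+, and Rpl14 at -6.87, -6.00 and -6.59 in NrasG12D/G12D, -4.27, -3.29 and -5.23 in NrasG12D/+, and -2.55 and -3.99 in Nras+/+. Neither was well above background in NrasG12D/G12D, and neither passed (adjusted p = 0.803 for Ndufa10 against NrasG12D/+ and 0.722 for Rpl14 against Nras+/+ in limma). Ndufa10 and Rpl14 met the filter on dim probes only through the other genotypes, where they were higher. Ndufb4 met it only through mutant arrays. These genes were also picked by a low p, so their p-values are no support.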

How the data were processed

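The authors' scanner files hold spot intensities of 8 Agilent 1-colour (Cy3) arrays. Per the file headers they were made with Feature Extraction 10.5.1.1, whose processed signal is an intensity that was background-subtracted and detrended within the array and not scaled between arrays. The deposited value table holds a ratio, which equals that signal divided by the median of the array, and it served as an alternative.

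From these, log2 processed signals were computed, spots with an outlier flag were left out, spots of a probe were averaged, and each array's 75th percentile, over the 6576 probes that every array detected, was taken off. Testing needed a signal well above background on 2 or more arrays. It also needed at least 2 unflagged arrays per genotype, a condition added after the files were seen. The brightest such probe represented a gene. Genotypes were compared two-sided with limma 3.58.1 (R 4.3.3; lmFit, eBayes), with all 3 groups in 1 fit and Benjamini-Hochberg adjustment over 14966 genes at 0.05. The scripts were tested on simulated data.

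The alternatives were normexp background correction with offset 50, other scalings, other filters on dim probes, the slide or the replicate number as a block, and each array left out. Genes named are members past the threshold, the 4 largest changes each way per comparison among members detected on at least 4 arrays, members detected on all 8, and a set taken whatever its values. Of each other gene list, up to 2 genes with the lowest unadjusted p under 0.01 in a comparison are named. The members and lists were chosen with earlier results of these data known. The number of arrays limits the precision, and no spot was saturated.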

Additional observations from a re-analysis of the deposited data

How the results depend on the processing

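No member was called under any alternative. Over all genes, calls in NrasG12D/+ against Nras+/+ became 1 with quantile normalization, with the 75th percentile over all probes, with the deposited value table and with no filter on dim probes, and ranged from 0 to 10 with 1 array left out (10 without Nras+/+ replicate 2). In NrasG12D/G12D against Nras+/+ they became 1 with quantile normalization, with no filter, with only the 2 groups fitted and with the slide as a block, and ranged from 0 to 9 with 1 array left out (9 without Nras+/+ replicate 2). In NrasG12D/G12D against NrasG12D/+ they became 4 with the slide as a block and ranged from 0 to 2. The members' median relative to all genes in NrasG12D/G12D against Nras+/+ was -0.041 with normexp, -0.125 with no filter and -0.060 with the slide as a block. With 1 array left out it ranged from -0.352 to -0.149 there, from -0.204 (without Nras+/+ replicate 1) to 0.097 (without NrasG12D/+ replicate 3) in NrasG12D/+ against Nras+/+, and from -0.262 to -0.035 between the mutant genotypes. The deviations of samples with the same replicate number correlated at r -0.09 to 0.08, and those of other samples at -0.12 to 0.11. The deviations of the 2 controls mirror each other, and the mutant genotypes have 3 arrays each. These values therefore cannot decide whether the numbers pair the samples. With the replicate number as a block the medians were -0.287, 0.020 and -0.163 in the same order, with 0 calls each. The sign differed from the reported one in 112 of 1582 values of named members, in 45 of 87 results. The causes were not tested. Dim signal limits the set. Of 75 genes 26 could not be tested: 18 detected on no array, 7 detected on 1 array, and Mrps35 for its outlier flags.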
